A study of Homo sapiens with 47 samples.

Results

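The cells described here are the 12 neurofilament-high and the 12 neurofilament-low cells among 47 single HEK293 cells. They were selected on their own counts: the UMIs of NEFM and NEFL were summed in each cell and divided by all endogenous UMIs of that cell, and the 12 highest and the 12 lowest shares formed the groups. The other 23 cells belong to neither group and are given as a middle set. HEK293 is a widely used human line derived from embryonic kidney. All 47 cells were grown in DMEM with glutamine and fetal calf serum, received no treatment, carry the same cell line label and came from 1 run on a Fluidigm C1 chip. RNA was primed with oligo-dT, the 5' ends of the cDNA were kept, and molecules were counted by unique molecular identifiers (UMIs). The groups were therefore defined from the data and are not groups of the study, and the labels name no separate cultures.

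Neurofilaments are the intermediate filaments of neurons, built from a light, a medium and a heavy subunit together with alpha-internexin or peripherin. NEFM encodes the medium subunit and NEFL the light subunit, and the light subunit forms the core of the filament. They set the calibre of large axons and are used as markers of neurons, but transcripts of neuronal genes, neurofilament subunits among them, are also known in HEK293 cells.

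Because 1 culture cannot be told from another here, cells are not replicates of a condition and no test was run. Values are UMIs per 1000000 endogenous UMIs of a cell, written CPM below and given as the mean ± SD over cells or as the lowest, median and highest cell, and a fold is the mean in neurofilament-high cells over the mean in neurofilament-low cells. Poisson intervals (95%, exact) are for summed UMIs and cover counting error only. Folds were computed for the 4026 genes with at least 48 UMIs over the 24 cells.

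The summed share of NEFM and NEFL was 568.8 ± 270.3 CPM in neurofilament-high cells, 89.1 ± 58.1 in cells of neither group and 15.4 ± 9.31 in neurofilament-low cells. These values chose the groups and are given as a description. The lowest, median and highest shares were 231.3, 567.4 and 1054 CPM in neurofilament-high cells, against 0, 18.0 and 28 in neurofilament-low cells. The neurofilament-high cells held 427 of the 574 NEFM and NEFL UMIs of all cells, which is 74.4%, and the neurofilament-low cells held 12. Just inside the upper bound was cell 56 at 231.3 CPM, and just outside it were cells 74 and 33 at 221.6. The lower bound fell between cell 8 at 28 and cell 87 at 28.7 CPM.

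The low bound rested on single molecules. Of the neurofilament-low cells, 2 had no UMI, 8 had 1 and 2 had 2. In all 12 cells had exactly 1 UMI, and 4 of these were in neither group, since a share of 1 UMI is smaller in a more deeply counted cell. After every cell was thinned to 29325 UMIs, each neurofilament-high cell kept at least 7 NEFM and NEFL UMIs. After the same thinning each neurofilament-low cell kept at most 2 and 7 of them had none. When cells were ranked on these thinned counts, 11 of the 12 neurofilament-high cells but 8 of the 12 neurofilament-low cells were chosen again. All thinned values here and below rest on 1 random draw, with ties given to the lower cell number. In that draw cells 16 and 53, of neither group and with 4 and 3 UMIs as deposited, had 0.

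NEFM supplied most of the signal, with 462 UMIs over all cells, and NEFL gave 112. NEFM was at 469.5 ± 276.8 CPM in neurofilament-high cells and at 9.89 ± 8.91 in neurofilament-low cells. NEFL was at 99.3 ± 79.3 CPM in neurofilament-high cells and at 5.53 ± 9.22 in neurofilament-low cells. Counts of 5' ends do not scale with transcript length, and by these counts 11 of the 12 neurofilament-high cells held more NEFM than NEFL molecules. The exception was cell 2, with 1 NEFM UMI and 21 NEFL UMIs. Over the 47 cells the shares of NEFM and NEFL had Pearson's r of 0.433 and Spearman's rho of 0.488. Without cell 2 these were 0.700 and 0.552. Within the 12 neurofilament-high cells r was -0.224 and rho 0.161.

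**Figure D1:**
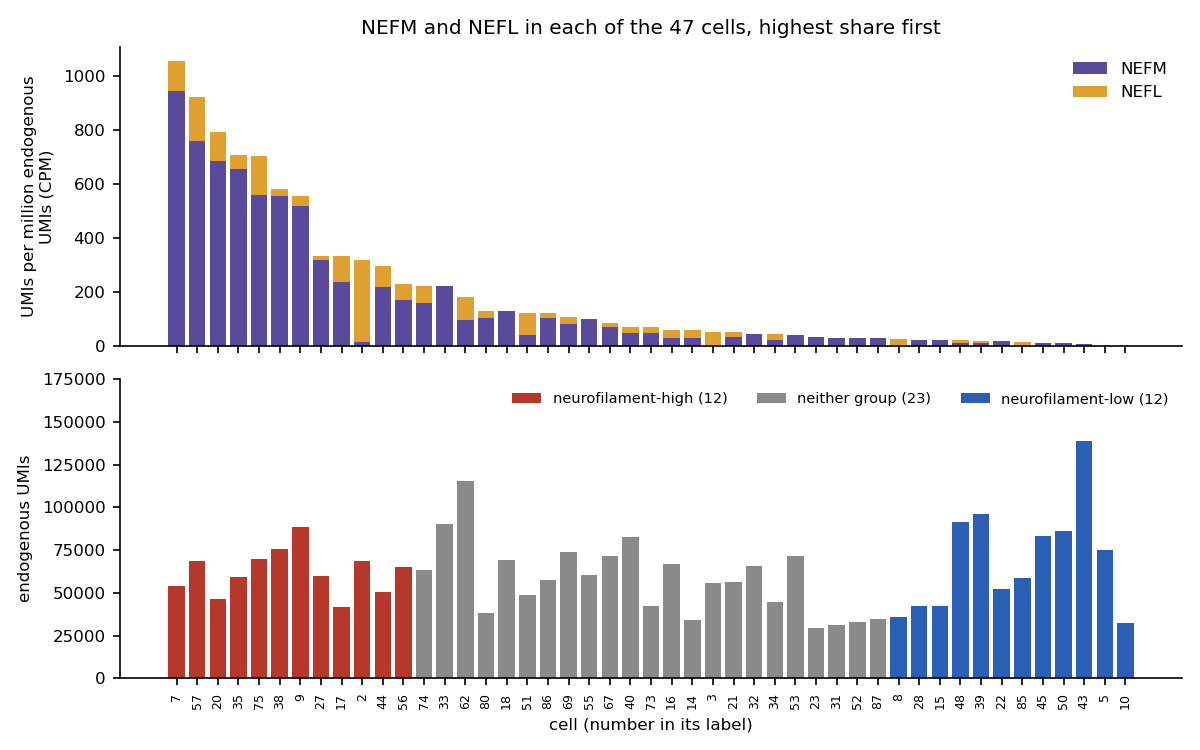
The upper panel stacks NEFM and NEFL in CPM for each of the 47 cells, highest share first; the lower panel gives the endogenous UMIs of the same cells, coloured by group. The shares run from 1054 CPM in cell 7 to 0 in cells 5 and 10, cell 2 is nearly all NEFL, and cell 43 of the neurofilament-low group has the most UMIs, 138647.

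Depth was less spread in neurofilament-high cells. A cell had 62366 ± 13105 endogenous UMIs in the neurofilament-high group (41946 to 88466) and 69538 ± 31421 in the neurofilament-low group (32527 to 138647). The ratio of the means was 0.897, and 0.986 without cell 43, but it turned to 1.10 with 16 cells in each group and to 1.13 with a low group of all cells with at most 1 neurofilament UMI. Spike-in UMIs averaged 3696 in neurofilament-high cells and 3504 in neurofilament-low cells. Genes detected averaged 6724 in neurofilament-high cells and 6683 in neurofilament-low cells. All mitochondrially encoded RNA took 5.55% of endogenous UMIs in neurofilament-high cells, against 4.75% in neurofilament-low cells. The part of depth in the differences below was not tested.

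Most genes lay within 2-fold. Of the 4026 genes, 128 (3.18%) were at least 2-fold higher and 57 (1.42%) at least 2-fold lower in neurofilament-high cells. At 1.5-fold these were 476 genes (11.8%) higher and 290 (7.20%) lower. The count of genes whose 12 and 12 cells did not overlap was 0 (0%). Low counts carried nearly all of the large folds: 125 of the 128 higher genes and all 57 lower ones had fewer than 240 UMIs. Among the 1010 genes with at least 240 UMIs, 3 were 2-fold higher and 0 were 2-fold lower. Synthetic ERCC RNAs, added to every cell in equal amount, give the technical spread of a fold. The SD of the log2 fold was 0.514 over the 3016 genes with fewer than 240 UMIs, against 0.442 over 14 spike-ins in that range. It was 0.251 over the 1010 abundant genes, against 0.0775 over 22 spike-ins with at least 240 UMIs. None of the 36 spike-ins passed 2-fold. At 1.5-fold, 3 of the 14 spike-ins with fewer than 240 UMIs were higher and 0 lower. Of the 3016 genes in that range, 463 were higher and 276 lower. With at least 240 UMIs, 0 of the 22 spike-ins passed 1.5-fold, while 13 of the 1010 genes were higher and 14 lower.

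**Figure D2:**
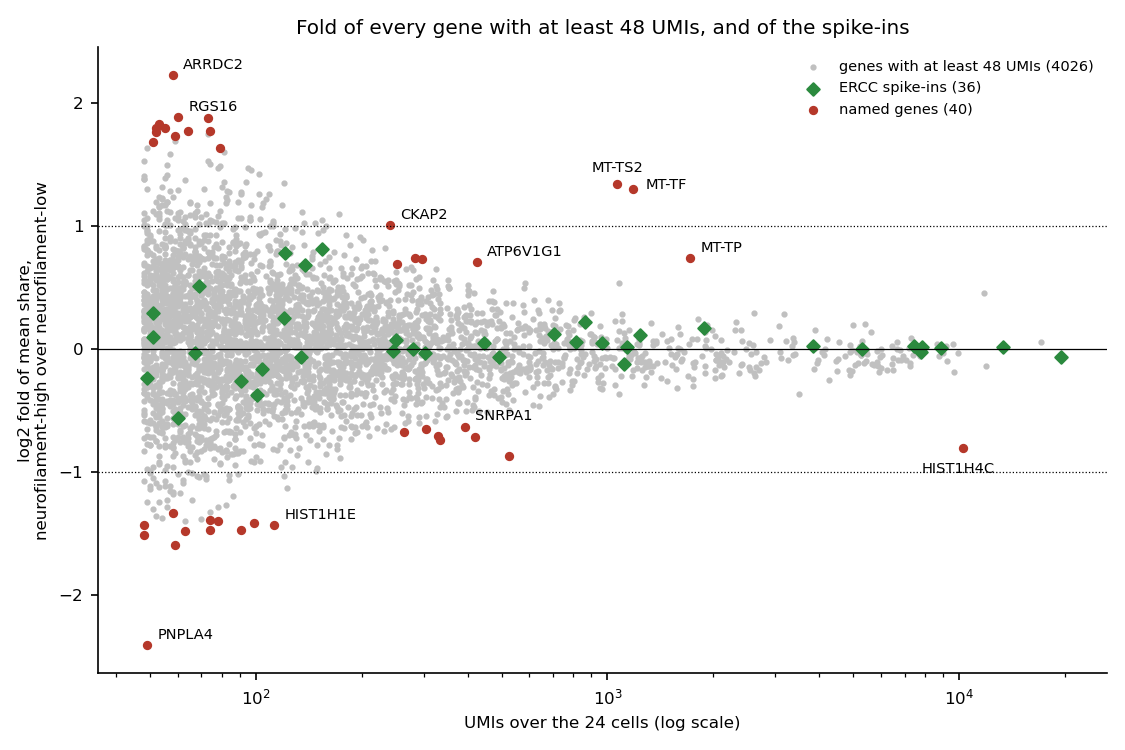
Each point is a gene (grey), a gene chosen by the naming rule (red) or an ERCC spike-in (green), at its UMIs over the 24 cells (log scale) and its log2 fold, neurofilament-high over neurofilament-low; dotted lines mark 2-fold. The cloud narrows as UMIs increase, and HIST1H4C, MT-TF and MT-TS2 stand outside it at more than 1000 UMIs.

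Replication-dependent histones were lower in neurofilament-high than in neurofilament-low cells, by an amount that depended on which cells were chosen. Cells of neither group were close to the neurofilament-high cells. These genes supply the histones that package newly copied DNA, are expressed in S phase, and their mRNAs mostly end in a stem-loop without a poly(A) tail, so an oligo-dT library holds only part of them. Their summed share was 0.503% ± 0.389 of endogenous UMIs in neurofilament-high cells, 0.521% ± 0.387 in cells of neither group and 0.875% ± 0.391 in neurofilament-low cells (SD over 12, 23 and 12 cells). The fold was 0.575, and from 0.510 without cell 2 to 0.631 without cell 8 when each of the 24 cells was left out. Of the 8 histone genes with at least 48 UMIs, 6 were at least 1.5-fold lower and 3 of these at least 2-fold lower. Over all genes these shares were 7.20% and 1.42%. Their median log2 fold was -0.81, against 0.04 over all 4026 genes. In settings added after seeing the data, thinning the counts of the same cells gave 0.561. Ranking the cells after thinning, which replaced 4 of the neurofilament-low cells and 1 of the neurofilament-high cells, gave 0.837 on the deposited counts and 0.815 on thinned counts, and the share was then no longer 1.5-fold lower.

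HIST1H4C, a histone H4 gene, held most of these UMIs, with 3839 in neurofilament-high cells and 6444 in neurofilament-low cells. Its lowest, median and highest values were 905.4, 2811 and 10893 CPM in neurofilament-high cells, against 3105, 7668 and 16286 in neurofilament-low cells. The ranges overlapped, but 7 of the 12 neurofilament-high cells lay below every neurofilament-low cell, and so did 11 of the 23 cells of neither group. Of the neurofilament-high cells, 7 had 0.104% to 0.324% of their UMIs in histones and 5 had 0.811% to 1.13%, while the neurofilament-low cells spread from 0.326% to 1.73%. The mean of HIST1H4C was 4716 ± 3753 CPM in neurofilament-high cells and 8232 ± 3690 in neurofilament-low cells, a fold of 0.573, or 0.837 with cells ranked after thinning. Over the 47 cells HIST1H4C had a Spearman's rho of -0.387 with the neurofilament share and of -0.00347 with endogenous UMIs. In the 23 cells of neither group, which did not enter the fold, rho with the neurofilament share was -0.332. That share also set the groups and rested on few UMIs in part of these cells, 4 of which had exactly 1. This rho is a description and no separate support.

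The remaining histones were sparser. HIST1H1E, a linker histone H1, was at 0, 25.1 and 138.8 CPM (lowest, median, highest) in neurofilament-high cells and at 0, 79.5 and 288.3 in neurofilament-low cells. Its fold was 0.370, between 0.290 and 0.433 with any cell left out, and 0.625 with cells ranked after thinning. HIST1H2AM, an H2A gene, had a fold of 0.441 and HIST1H3B, an H3 gene, 0.489, but HIST1H2AM was at 0.790 with 8 cells in each group and HIST1H3B at 0.914 with cells ranked after thinning. The H1 genes HIST1H1C and HIST1H1D had folds of 0.568 and 0.593. HIST1H1C was at 0.979 with cells ranked by NEFL alone. HIST1H1D was at 0.924 with UMIs summed over the cells of each group, and turned to 1.79 with 8 cells in each group. HIST1H2BK, an H2B gene at 0.978, and HIST2H2AC, an H2A gene at 0.917, were close to even. Without HIST1H4C the summed histone share was 0.0312% in neurofilament-high cells and 0.0519% in neurofilament-low cells, a fold of 0.602. Histone H2A, H2B, H3 and H4 genes are near-identical copies within their class, so the split of molecules between such copies is uncertain.

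Start-site windows of 3 of the lower histone genes are shown because these genes had folds below 1 and share promoter letters. That they share these letters was thus fixed by the choice. HIST1H1C and HIST1H2AM, also lower, are not shown. The windows run from 250 bases before to 50 bases after the start (RefSeq, GRCh38.p14, whereas the table was made on hg19/GRCh37). Capitals mark the TATA box letters TATAAA and the CCAAT box letters CCAAT, searched on both strands, so that TTTATA and ATTGG are the reverse-strand matches.
HIST1H1E, chr6:26156079-26156378, plus strand: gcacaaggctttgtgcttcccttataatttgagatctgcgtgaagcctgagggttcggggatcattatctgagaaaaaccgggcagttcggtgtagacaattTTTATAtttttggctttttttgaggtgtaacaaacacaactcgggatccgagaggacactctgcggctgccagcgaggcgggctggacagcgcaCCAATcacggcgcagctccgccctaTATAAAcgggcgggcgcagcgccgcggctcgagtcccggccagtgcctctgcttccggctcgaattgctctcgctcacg
HIST1H1D, chr6:26234938-26235237, minus strand: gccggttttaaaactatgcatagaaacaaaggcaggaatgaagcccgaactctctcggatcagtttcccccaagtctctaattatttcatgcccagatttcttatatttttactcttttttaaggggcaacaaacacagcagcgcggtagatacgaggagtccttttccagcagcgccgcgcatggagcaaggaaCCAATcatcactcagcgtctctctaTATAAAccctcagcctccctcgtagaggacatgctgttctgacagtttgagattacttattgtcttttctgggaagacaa
HIST1H3B, chr6:26032050-26032349, minus strand: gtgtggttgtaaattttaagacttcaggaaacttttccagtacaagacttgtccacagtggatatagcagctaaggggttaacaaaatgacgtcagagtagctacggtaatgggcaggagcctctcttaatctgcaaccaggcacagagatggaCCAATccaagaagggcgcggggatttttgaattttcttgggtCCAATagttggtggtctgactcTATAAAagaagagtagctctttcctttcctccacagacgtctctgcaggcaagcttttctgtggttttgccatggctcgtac
A window was found for 7 of the 8 histone genes. CCAAT was present in 7 of the 7 windows, against 34.6% of all 35116 promoter windows of the same length. TATAAA was present in 6 of the 7, against 11.5% of all windows, and HIST1H1C was the gene without it. HIST1H2BK and HIST2H2AC, whose folds were close to even, held both motifs as well. The GC box letters GGGCGG were present in 2 of the 7 against 45%, and the E-box letters CACGTG in 0 of the 7 against 7.26%. A match describes the letters in the window and is not evidence of a bound factor.

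Rows for mitochondrial tRNAs were higher in neurofilament-high than in neurofilament-low cells. Mitochondrial tRNAs are cut out of long polycistronic transcripts, where they sit between the rRNA and mRNA genes. The summed share of the 22 tRNA rows was 0.392% ± 0.307 in neurofilament-high cells, 0.322% ± 0.303 in cells of neither group and 0.192% ± 0.108 in neurofilament-low cells, a fold of 2.04. Of the 10 rows with at least 48 UMIs, 7 were at least 2-fold higher, 8 at least 1.5-fold higher and 0 at least 1.5-fold lower, against 3.18%, 11.8% and 7.20% of all genes. This list was drawn up after these values had been seen. The 3 most abundant named rows are shown with their genes (GENCODE 29, GRCh38, all letters in lower case since no part is singled out).
MT-TF, chrM:577-647, plus strand: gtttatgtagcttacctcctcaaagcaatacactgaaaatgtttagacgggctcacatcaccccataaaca
MT-TS2, chrM:12207-12265, plus strand: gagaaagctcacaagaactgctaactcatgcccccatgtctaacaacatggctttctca
MT-TP, chrM:15956-16023, minus strand: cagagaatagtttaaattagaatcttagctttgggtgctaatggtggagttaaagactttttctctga
MT-TF, the tRNA for phenylalanine, was at 221.8, 773.4 and 3568 CPM (lowest, median, highest) in neurofilament-high cells, against 123.0, 389.2 and 812.3 in neurofilament-low cells. MT-TS2, a tRNA for serine, was at 157.4, 538.2 and 2976 CPM in neurofilament-high cells, against 93.8, 326.0 and 742.9 in neurofilament-low cells. Single cells held much of the excess: 6 of 12 neurofilament-high cells for MT-TF and 4 of 12 for MT-TS2 lay above every neurofilament-low cell, and so did 7 and 6 of the 23 cells of neither group.

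The fold was 2.46 for MT-TF and 2.53 for MT-TS2, or 1.51 and 1.26 with 8 cells in each group and 1.17 and 1.30 with cells ranked by NEFM alone. MT-TP, the tRNA for proline, averaged 1281 CPM in neurofilament-high cells and 768.9 in neurofilament-low cells, a fold of 1.67. The MT-TP fold was 1.31 with 8 cells in each group, 1.17 with cells ranked by NEFM alone and 1.41 with spike-in scaling. MT-TP was also no longer past 1.5-fold without cell 2 or among cells numbered above 48. Here and below, that setting holds only 3 neurofilament-high and 2 neurofilament-low cells. The highest cell of all was cell 55, in neither group, with 4064 CPM of MT-TF and 4694 of MT-TS2. Over the 47 cells the summed tRNA share had a rho of 0.283 and an r of 0.0971 with the neurofilament share. The fold of the sum was 1.70 without cell 2, 1.33 with 8 cells in each group and 1.18 with cells ranked by NEFM alone. The 13 mitochondrially encoded mRNAs took 3.17% ± 0.604 of UMIs in neurofilament-high cells and 2.84% ± 0.388 in neurofilament-low cells, and 0 of the 13 passed 1.5-fold. That direction turned with 16 cells in each group, with cells ranked after thinning and with a low group of all cells with at most 1 neurofilament UMI, where the folds were 0.865, 0.874 and 0.842. The use of strand in counting was not given, so UMIs of a tRNA and of an overlapping transcript of the other strand cannot be told apart.

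**Figure D3:**
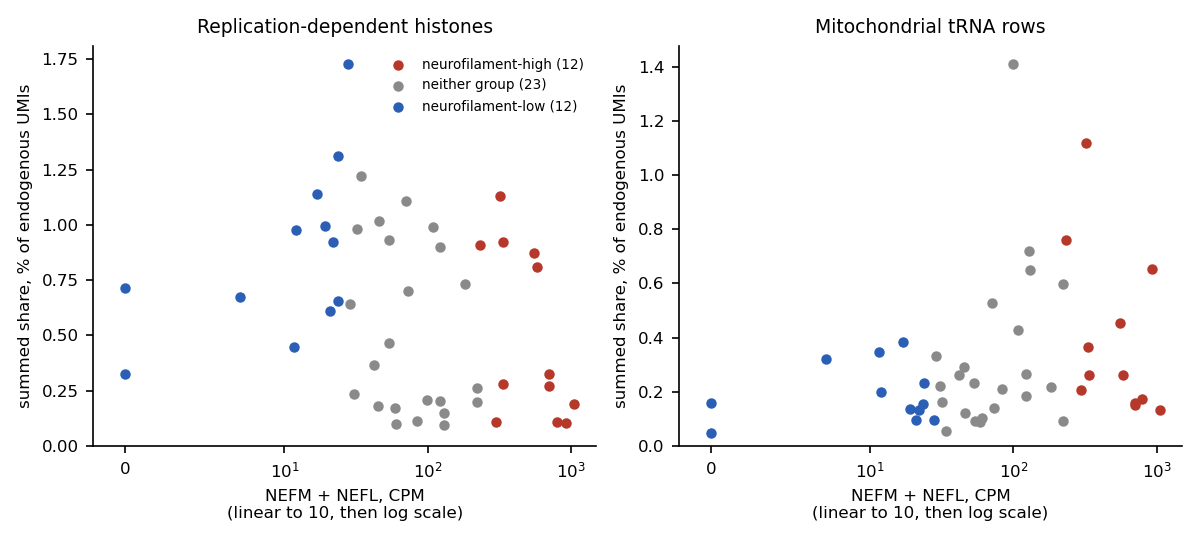
Each point is a cell, placed by its NEFM plus NEFL share (CPM, linear to 10 and log above) and by the summed share of replication-dependent histones (left) or of the mitochondrial tRNA rows (right), in % of endogenous UMIs. Every cell with under 0.326% in histones is neurofilament-high or of neither group, and the highest tRNA shares, 1.41% in cell 55 and 1.12% in cell 2, are single cells.

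The other cell cycle lists had summed folds closer to 1 than the histones. Of the 31 G2/M genes with at least 48 UMIs, which act in chromosome segregation and division, 5 were at least 1.5-fold higher and 0 lower, against 11.8% and 7.20% of all genes. Their median log2 fold was 0.26, against 0.04 over all genes. Their summed share was 0.555% ± 0.159 in neurofilament-high cells and 0.498% ± 0.156 in neurofilament-low cells, a fold of 1.11, which turned to 0.959 when cells were scaled by their spike-ins. HMMR, a spindle-associated hyaluronan receptor, was at 0, 48.5 and 110.9 CPM (lowest, median, highest) in neurofilament-high cells and at 0, 10.8 and 93.8 in neurofilament-low cells, a fold of 2.81 that turned to 0.955 with cells ranked after thinning. ARL6IP1 had a fold of 2.12 and BUB1B, a spindle checkpoint kinase, 2.06, but these were 1.36 with thinned counts and ranking and 1.26 with cells ranked by NEFL alone. CENPF and CENPE, both kinetochore proteins, had folds of 1.80 and 1.71, with CENPF at 1.41 with 16 cells in each group and CENPE at 1.00 among cells numbered above 48. Of 25 G1/S genes, CHAF1A, a subunit of the chromatin assembly factor that deposits histones on new DNA, was 1.76-fold higher, but at 0.821 with cells ranked by NEFL alone. MCM6, a subunit of the replicative helicase, had a fold of 0.479, or 0.730 with 16 cells in each group. The summed share of the G1/S genes was 0.373% in neurofilament-high cells and 0.366% in neurofilament-low cells.

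Among the 12 higher genes with at least 48 UMIs that were chosen by their fold when any single cell was left out, ARRDC2, an arrestin-domain protein, came first. Its lowest, median and highest values were 0, 42.5 and 145.6 CPM in neurofilament-high cells and 0, 0 and 34.8 in neurofilament-low cells, a fold of 4.66, or 1.97 with cells ranked by NEFM alone and 2.44 by NEFL alone. RGS16, a GTPase-activating protein that shortens G protein signalling, had a UMI in 12 of 12 neurofilament-high cells, 11 of 23 cells of neither group and 7 of 12 neurofilament-low cells. Its lowest, median and highest values were 16.8, 61.3 and 107.9 CPM in neurofilament-high cells and 0, 12.4 and 57.2 in neurofilament-low cells. The RGS16 mean was 62.9 ± 26.9 CPM in neurofilament-high cells and 17.1 ± 20.0 in neurofilament-low cells, a fold of 3.68 (2.25 with thinned counts and ranking), and 7 neurofilament-high cells lay above every neurofilament-low cell. Summed over cells, RGS16 had 47 UMIs in neurofilament-high cells (62.8 CPM, interval 46.1 to 83.5) and 13 in neurofilament-low cells (15.6, interval 8.30 to 26.6). All 12 of these higher genes, RGS16 among them, were chosen by their fold between these same cells. Each reached 48 UMIs mainly through the neurofilament-high group. Their folds, and the gap between the RGS16 intervals, are therefore a description and no support.

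The other higher genes of this kind had folds of 3.09 to 3.67. They were the deubiquitinases USP10 and USP9X, the centromere cohesion protector SGOL2, the Rab3 GTPase-activating subunit RAB3GAP1, the nucleoporin NUP160, the RNA helicases DHX33 and DDX31, the dynein cofactor NUDCD3, the small GTPase ARF3 and the antisense transcript RAB30-AS1. RAB30-AS1 cannot be told apart from its partner without strand. Several of these folds were smaller under other settings. With thinned counts and ranking, SGOL2 was at 1.30, USP9X at 1.40, RAB30-AS1 at 1.70, USP10 at 1.77 and NUP160 at 1.90, and NUP160 was at 1.52 with cells ranked after thinning. With cells ranked by NEFL alone, ARF3 was at 1.13, USP10 at 1.67, DDX31 at 1.77 and USP9X at 1.97. With cells ranked by NEFM alone, RAB3GAP1 was at 1.56 and NUDCD3 at 1.66. DHX33 had its lowest value, 2.36, with 8 cells in each group. USP10 and USP9X were as high in cells of neither group as in neurofilament-high cells. USP10 averaged 75 CPM in neurofilament-high cells, 72.3 in cells of neither group and 22 in neurofilament-low cells. USP9X averaged 53.6 CPM in neurofilament-high cells, 54.6 in cells of neither group and 15.5 in neurofilament-low cells.

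More abundant genes gave smaller folds. CKAP2, a spindle microtubule protein, was at 23.8, 215.3 and 471.2 CPM (lowest, median, highest) in neurofilament-high cells, against 17, 99.8 and 174.1 in neurofilament-low cells. The fold was 2.01, or 1.38 with thinned counts and ranking. For CKAP2, 8 of the 12 neurofilament-high cells and 8 of the 23 cells of neither group lay above every neurofilament-low cell. ATP6V1G1, a subunit of the proton pump that acidifies lysosomes, averaged 325.6 ± 108.6 CPM in neurofilament-high cells and 200.2 ± 82.8 in neurofilament-low cells, a fold of 1.63, or 1.34 with spike-in scaling. TRA2B, a splicing regulator, and EIF4A2, an RNA helicase of translation initiation, each had a fold of 1.66, and the deubiquitinase USP1 one of 1.61. With cells ranked by NEFL alone TRA2B was at 1.19 and EIF4A2 at 1.03, and USP1 turned to 0.997 among cells numbered above 48.

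The genes lower in neurofilament-high cells were a mixed set. They too were chosen by their fold between these same cells, and those chosen at 48 UMIs reached it mainly through the neurofilament-low group. PNPLA4, a lipid hydrolase, was at 0, 5.65 and 30.8 CPM (lowest, median, highest) in neurofilament-high cells and at 0, 36.2 and 165.5 in neurofilament-low cells, a fold of 0.189, or 0.711 with cells ranked by NEFL alone. POLG, the mitochondrial DNA polymerase, APIP, an enzyme of methionine salvage, PDCL3, a phosducin-like protein, THOP1, a peptidase, and STX8, a SNARE of endosomes, had folds of 0.331 to 0.375. ACTR10, a dynactin subunit, DYNC2LI1, a subunit of ciliary dynein, PALLD, an actin-binding protein, and the row AC092155.1 had folds of 0.360 to 0.397. With cells ranked by NEFL alone, POLG was at 0.939, DYNC2LI1 at 0.880, APIP at 0.851, STX8 at 0.813, PALLD at 0.635 and THOP1 at 0.578. STX8 was at 0.833 with thinned counts and ranking, and AC092155.1 and ACTR10 at 0.930 and 0.674 among cells numbered above 48. PDCL3 had its highest value, 0.544, among cells numbered above 48. Among abundant genes, SNRPA1, a protein of the U2 splicing particle, was at 71.5, 174.7 and 393.2 CPM in neurofilament-high cells and at 208.1, 283.5 and 425.1 in neurofilament-low cells. Its fold was 0.645, and 7 of the 12 neurofilament-high cells lay below every neurofilament-low cell. So did 11 of the 23 cells of neither group. LSM2, a subunit of an RNA-binding ring in splicing and decay, had a fold of 0.607. LSM2 averaged 205.4 CPM in neurofilament-high cells, 207.8 in cells of neither group and 338.3 in neurofilament-low cells. COA6, which helps assemble cytochrome c oxidase, had one of 0.597, and its 12 neurofilament-high cells all lay below the median neurofilament-low cell. RPL22L1, a paralog of a ribosomal protein, had a fold of 0.548, but 0.922 with thinned counts and ranking and 0.940 among cells numbered above 48. RPL22L1 averaged 223.8 CPM in neurofilament-high cells, 220.3 in cells of neither group and 408.7 in neurofilament-low cells. HAX1, PPM1G and MMADHC had folds of 0.612 to 0.638. For these genes, SNRPA1 and COA6 the mean in cells of neither group lay between those of the groups. The other 6 lower abundant genes beside histones and RPL22L1 each lost 1.5-fold under some setting, with highest values of 0.805 for SNRPA1, 0.829 for LSM2, 0.896 for COA6, 0.766 for HAX1, 0.915 for PPM1G and 0.865 for MMADHC.

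**Figure D4:**
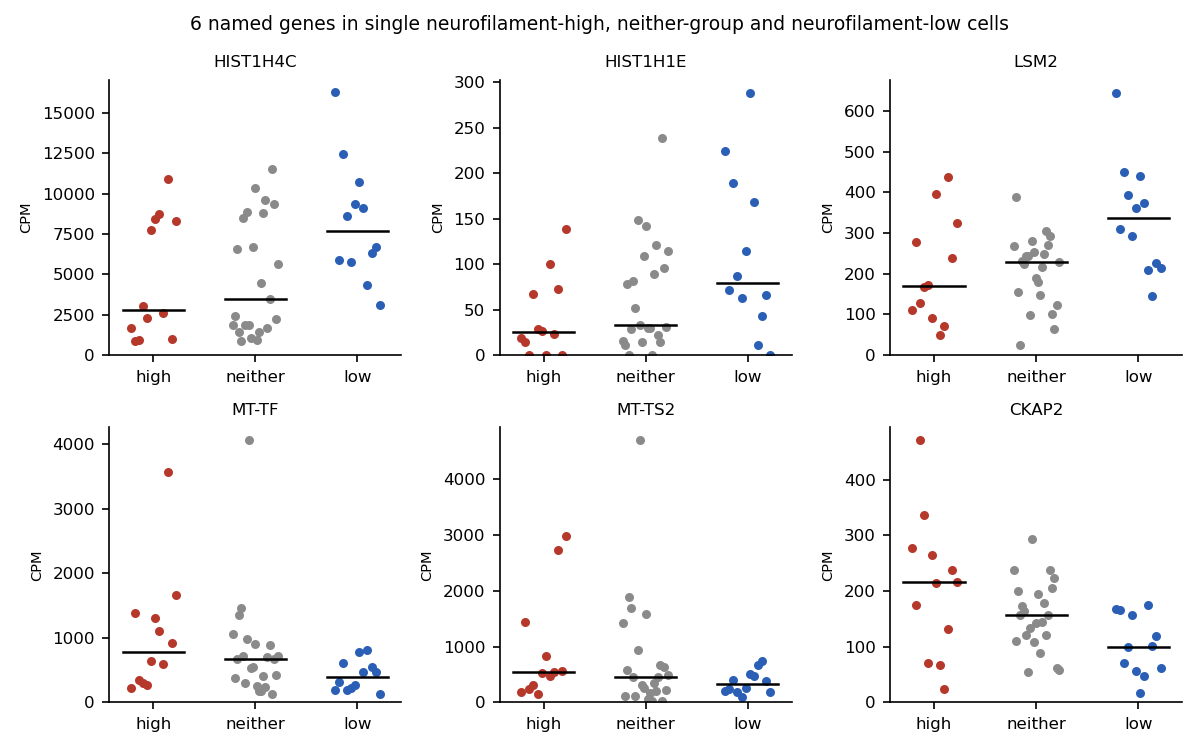
Each point is a cell and each bar a median, in CPM, for neurofilament-high (12), neither-group (23) and neurofilament-low (12) cells; every axis starts at 0. The histones HIST1H4C and HIST1H1E and the RNA-binding LSM2 have lower medians in neurofilament-high cells, MT-TF, MT-TS2 and CKAP2 higher ones, and the groups overlap in all 6 panels.

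The other neuronal markers were sparse or close to even. Of 35 neuronal markers 18 had a row, 2 had at least 48 UMIs, and 0 of these passed 1.5-fold. UCHL1, an abundant neuronal deubiquitinase, was at 151.2, 253.5 and 619.8 CPM (lowest, median, highest) in neurofilament-high cells and at 69.6, 271.0 and 449.0 in neurofilament-low cells, a fold of 1.16. The summed marker share was 0.0477% ± 0.0137 in neurofilament-high cells (0.037% to 0.0763%) and 0.0399% ± 0.0143 in neurofilament-low cells (0.0139% to 0.0679%). Of the 18 markers, 8 had more UMIs in neurofilament-high cells, 7 had more in neurofilament-low cells and 3 had as many in both. Such UMI sums are not scaled to depth, which averaged 62366 endogenous UMIs in neurofilament-high cells and 69538 in neurofilament-low cells. RBFOX3, a splicing factor of mature neurons, had 11 UMIs in 4 neurofilament-high cells and 0 in neurofilament-low cells. ENO2, the neuronal enolase, had 15 UMIs in neurofilament-high cells and 5 in neurofilament-low cells, and SYP, a synaptic vesicle protein, had 6 in neurofilament-high cells and 1 in neurofilament-low cells. SYT1, another synaptic vesicle protein, had 4 UMIs in neurofilament-high cells and 12 in neurofilament-low cells, and DPYSL3, a protein of growing axons, had 1 in neurofilament-high cells and 9 in neurofilament-low cells. These low counts were picked out after they had been seen.

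Of the partners of NEFM and NEFL, alpha-internexin (INA) had 5 UMIs in neurofilament-high cells and 4 in neurofilament-low cells, and peripherin (PRPH) had 1 in neurofilament-high cells and 4 in neurofilament-low cells. Among the 6 intermediate filament and linker genes of the list with at least 48 UMIs, DST, a linker of filaments to other cytoskeleton, had a fold of 2.74 (1.83 with cells ranked by NEFL alone), and the epithelial keratin KRT8 one of 0.489. VIM, the filament of mesenchymal cells, averaged 216.2 CPM in neurofilament-high cells and 293.3 in neurofilament-low cells, a fold of 0.737. Of 11 genes for neurofilament kinases, turnover and mRNA binding, 2 were at least 2-fold higher, against 3.18% of all genes, both 14-3-3 adaptor proteins. YWHAH was at 23.8, 82.4 and 134.0 CPM (lowest, median, highest) in neurofilament-high cells and at 0, 26 and 118.9 in neurofilament-low cells, a fold of 2.28 (1.27 with thinned counts and ranking), with a rho of 0.513 over 47 cells. YWHAG had a fold of 2.09 on 49 UMIs, which turned to 0.800 with thinned counts and ranking. SOD1 and TARDBP, whose proteins have been tied to NEFL mRNA or neurofilament pathology, had folds of 0.993 and 1.06. The neural transcription factor HES6 had a fold of 2.87 on 48 UMIs, or 1.30 with a low group of all cells with at most 1 neurofilament UMI. HES6 was the only 1 of 9 in its list past 1.5-fold, against 11.8% of all genes at least 1.5-fold higher. Of 11 motor proteins of axonal transport, DYNC1LI1 and NDEL1, both of the dynein machinery, had folds of 0.640 and 0.547. Of all genes, 7.20% were at least 1.5-fold lower. DYNC1LI1 was at 0.857 with 8 cells in each group and NDEL1 at 0.733 with thinned counts and ranking. TUBB2B, a neuronal beta-tubulin, had a fold of 1.70, or 0.989 with cells ranked by NEFL alone.

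Defining markers of other cell types were at or near 0, apart from a few abundant genes. Of 13 adrenal markers 5 had a row, and 4 of these had at most 3 UMIs over the 47 cells. CYP11A1 and PNMT had no UMI in either group. The list still held 82 UMIs in neurofilament-high cells and 93 in neurofilament-low cells, and 1 gene of it had at least 48 UMIs. The fold of its summed share was 0.997. Of the kidney epithelium markers only CA2, a carbonic anhydrase, had at least 48 UMIs, with 373 in neurofilament-high cells and 357 in neurofilament-low cells. CA2 averaged 489.6 CPM in neurofilament-high cells and 377.4 in neurofilament-low cells. The fibroblast list had 201 UMIs in neurofilament-high cells and 255 in neurofilament-low cells, most of them VIM. Blood and immune markers had 0 UMIs in neurofilament-high cells and 6 in neurofilament-low cells. Of 12 genes that flank NEFM and NEFL, 6 on each side, DOCK5 had a row, with 5 UMIs in neurofilament-high cells, 3 in cells of neither group and 7 in neurofilament-low cells.

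**Figure D5:**
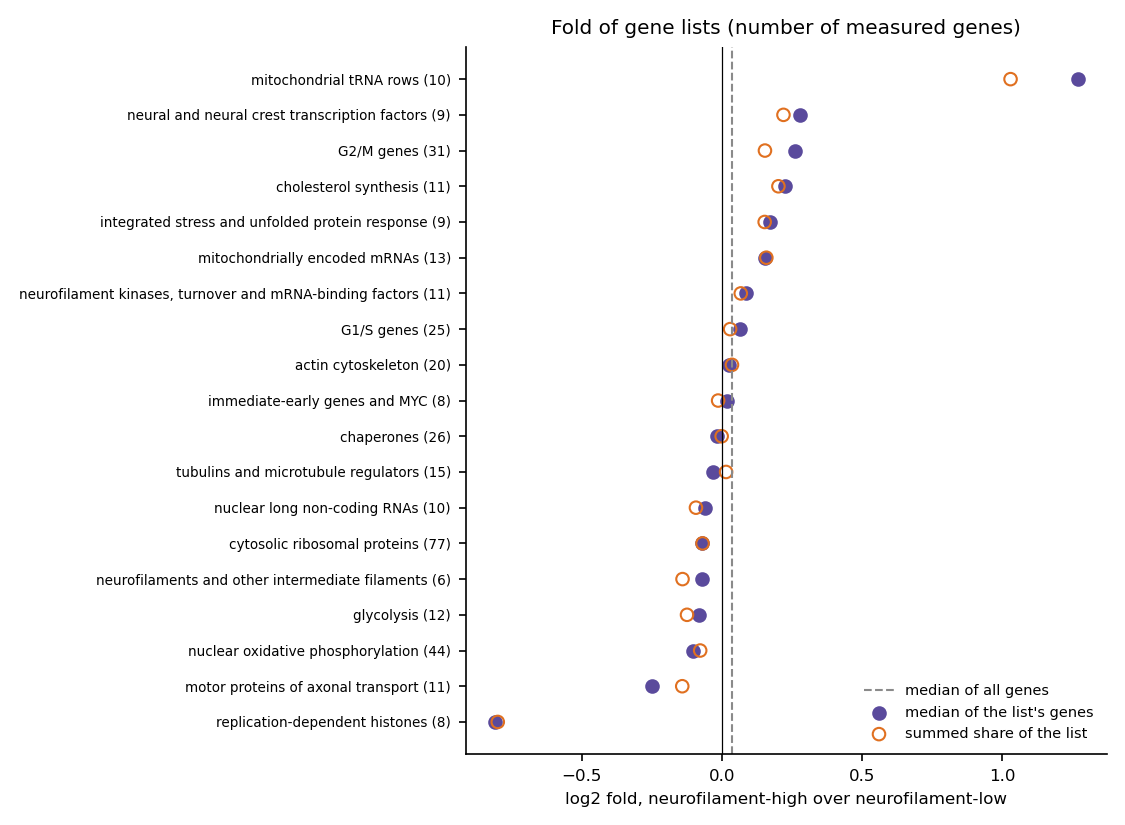
For each gene list with at least 5 genes of 48 or more UMIs (number in brackets), the filled point is the median log2 fold of those genes and the open point the log2 fold of the summed share, neurofilament-high over neurofilament-low; the dashed line is the median of all 4026 genes, 0.04. NEFM and NEFL are left out of their list. The mitochondrial tRNA rows (1.27) and the histones (-0.81) stand apart from the other lists, which lie between -0.25 and 0.28.

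Among genes with at least 240 UMIs over the 47 cells, the 10 whose shares ranked most like the neurofilament share had Spearman's rho of 0.390 to 0.444. They were CKAP2, the topoisomerase TOP1, the histone chaperone ANP32E, ERI3, ATP6V1G1, the endoplasmic reticulum disulfide isomerase PDIA4, the securin PTTG1, the catenin CTNNA1, the spliceosomal SNRNP25 and the citrate cycle subunit IDH3B. All points share each cell's library and total, and correlations of this size between sparse counts are a ranking and no finding. ANP32E averaged 121.7 ± 51.8 CPM in neurofilament-high cells, 62.7 ± 43 in cells of neither group and 63.4 ± 44.8 in neurofilament-low cells, a fold of 1.92 that was 1.16 with thinned counts and ranking.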

How the data were processed

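The authors deposited raw UMI counts, 1 row for each gene and 1 column for each cell. Per the submitters' processing notes, cutadapt 1.2.1 and STAR 2.4.0a were used, with hg19 and GRCh37. The annotation, UMI collapsing, use of strand and filter on cells are not given in the sources used here. A repeated header line (0.0602% of all values) was dropped, and ERCC spike-ins were kept out of totals. The 47 cells had 29325 to 138647 endogenous UMIs. Shares, means, SDs, folds, exact Poisson intervals and correlations were computed with Python 3.11.15, numpy 2.4.6, pandas 2.3.3 and scipy 1.17.1. Alternative scalings came from edgeR 4.0.16 (TMM) and DESeq2 1.42.0 (median ratio), which ran no test. The fold calculation was tested on simulated data. Named genes were the 12 per direction with at least 48 UMIs, and the 8 with at least 240, whose fold stayed farthest from 1 over leaving out each cell. From 25 gene lists, members past 1.5-fold or most abundant were named. A few genes that these rules name are not reported here. Groups and lists were chosen with earlier results of these data known. Alternatives were group sizes, single-gene ranking, scaling, thinning, minimum UMIs and cells left out.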

Additional observations from a re-analysis of the deposited data

How the results depend on the processing

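With 12 cells in each group, 128 genes were at least 2-fold higher and 57 at least 2-fold lower in neurofilament-high cells. With 8 cells in each group these counts were 165 and 147, with 16 they were 113 and 31, and among cells numbered up to 48 they were 169 and 98. Scaling by spike-ins moved the median log2 fold of all genes by -0.21 and gave 53 higher and 117 lower genes. Thinning the counts of the same cells gave 230 and 153, ranking the cells after thinning gave 125 and 68 on the deposited counts, and both together gave 231 and 149. A minimum of 1 UMI gave 3678 and 3290 genes, one of 24 UMIs gave 432 and 232, and one of 100 UMIs gave 20 and 3. Among cells numbered above 48, which were only 3 neurofilament-high and 2 neurofilament-low cells, 679 genes were higher and 435 lower. TMM scaling gave 91 and 66. Leaving out each of the 24 cells gave 106 to 156 higher genes, 52 to 71 lower genes and a depth ratio of 0.855 to 0.986. Thinning only the counts or only the ranking, and the low group of cells with at most 1 neurofilament UMI, were chosen after seeing the data. That low group gave 185 and 52 genes and a depth ratio of 1.13, and 16 cells in each group a depth ratio of 1.10. Of the 27 named genes past 2-fold, 14 stayed past it with cells ranked by NEFL alone, 18 with thinned counts and ranking, 20 with cells only ranked after thinning and 21 with cells ranked by NEFM alone. With TMM scaling 26 stayed and with median-ratio scaling 27.

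Single genes turned direction, or came to 1.00, as follows. With 8 cells in each group HIST1H1D was at 1.79 and SQLE at 0.762. With cells ranked by NEFM alone TMSB4X was at 0.941 and MT-TY at 0.790. With cells ranked by NEFL alone TUBB2B was at 0.989, MYH9 at 0.967, CHAF1A at 0.821, DDIT4 at 0.768 and FOS at 1.00. With thinned counts and ranking YWHAG was at 0.800, HMMR at 1.00 and DNAJB1 at 0.783. With only the counts thinned MYH9 was at 1.00, and with only the ranking thinned HMMR was at 0.955. Among cells numbered above 48 USP1 was at 0.997, TMSB4X at 0.375, HIST1H1D at 6.67, DDIT4 at 0.620, MT-TE at 0.581, MT-TY at 0.990 and ERI3 at 0.767. TMSB4X was at 0.896 without cell 27, and NEAT1 at 0.888 with a low group of cells with at most 1 neurofilament UMI. No paired analysis was possible because the cells carry no replicate number shared between groups. The cause of these shifts was not tested.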

Other observations

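Immediate-early genes, which are switched on within minutes of a stimulus, did not differ in 1 direction. FOS, FOSB and IER2 had folds of 0.532, 0.573 and 0.552, while EGR1 had 1.94 and MYC 1.58. Each of these lost 1.5-fold under some setting: FOS was at 1.00 with cells ranked by NEFL alone, IER2 at 0.873 with cells ranked by NEFM alone, FOSB at 0.867 and MYC at 1.02 with thinned counts and ranking, and EGR1 at 1.39 among cells numbered up to 48. MYC was at 55.4, 201.2 and 406.9 CPM (lowest, median, highest) in neurofilament-high cells and at 0, 128.3 and 285.4 in neurofilament-low cells. The summed share of this list was 0.0679% in neurofilament-high cells and 0.0685% in neurofilament-low cells.

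The 77 cytosolic ribosomal protein genes took 26.3% ± 1.52 of UMIs in neurofilament-high cells and 27.6% ± 2.46 in neurofilament-low cells, and 0 passed 1.5-fold. Nuclear genes of oxidative phosphorylation took 3.61% ± 0.337 in neurofilament-high cells and 3.81% ± 0.247 in neurofilament-low cells. The glycolytic enzyme PGAM1 had a fold of 0.647, and 0.756 with cells ranked by NEFL alone. PGAM1 was the only 1 of 12 glycolysis genes past 1.5-fold, against 7.20% of all genes at least 1.5-fold lower. In cholesterol synthesis, SQLE and NSDHL had folds of 1.56 and 1.64, 2 of 11 genes measured, against 11.8% of all genes at least 1.5-fold higher, but SQLE turned to 0.762 with 8 cells in each group and NSDHL was at 1.37 with cells ranked by NEFM alone.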
